A study of Homo sapiens with 30 samples.

Results

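PAX3, PAX7, MSX1, MSX2, LMX1A and GDF7 are 6 genes of the dorsal neural tube, and their chromatin was described in 10 lists of open regions from human embryonic stem cells on the way to brain progenitors. The genes were chosen by name, with earlier results of these data known. All 6 were found among 20037 protein-coding genes of the GRCh38.p14 RefSeq table. Every peak overlapping a gene body with 50 kb on each side was taken. Merging overlapping peaks of the 10 lists gave 296 regions around the 6 genes, of 493444 in all.

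Open chromatin was measured by OmniATAC-seq, an assay that tags accessible DNA with a transposase, in wild-type H1 cells, an established human embryonic stem cell line. The labels give 30 libraries in 10 groups of 3, each from 50000 cells, and each group has 1 peak list. The starting cells were undifferentiated (hPSC, day 0). Definitive ectoderm (DE, day 1) was made in A8301, trametinib, C59 and LDN193189, which block TGF-beta, MEK, WNT secretion and BMP receptor signalling. From DE, anterior neural ectoderm (aNE, day 2) was made in A8301, LDN193189, C59 and thiazovivin. Posterior neural ectoderm (pNE, day 2) was made from DE in A8301, LDN193189, XAV939, thiazovivin, FGF2 at 20 ng/mL and the retinoid TTNPB at 50 nM. Both origins were then taken to day 4 in telencephalon, midbrain or hindbrain medium, giving aNE_T, aNE_M and aNE_H (aNE-derived) and pNE_T, pNE_M and pNE_H (pNE-derived). For experiments past day 2 the anterior protocol plated 75000 cells per square cm and the posterior protocol 150000, so origin and plating density cannot be told apart. For aNE and pNE on day 2 the density was 37500 in both protocols, so day 2 and day 4 also differ in plating density. The make-up of the midbrain and hindbrain media was not used here. The BMP receptor inhibitor LDN193189 was present in every medium of days 1 and 2 described in the labels.

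In the embryo, the dorsal edge of the neural tube is patterned by BMP and WNT proteins, secreted first by the surface ectoderm and then by the roof plate. MSX1 and MSX2 are homeobox repressors induced by BMP signalling, LMX1A is the LIM homeobox factor that specifies the roof plate, and GDF7 is a BMP family ligand the roof plate secretes. PAX3 and PAX7 are paired box factors of the dorsal progenitors, and both also act in the neural crest.

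The lists differ in length, and that touches every value below. They held between 167792 (aNE) and 313095 (pNE_H) peaks on chromosomes 1 to 22, X and Y, covering between 75.5 and 129 Mb. The pNE_H list is the longest, and its ratio to pNE_T over the whole genome was 1.44. The shortest peak was 122 to 126 bp in the aNE and aNE-derived lists and 109 to 115 bp in the pNE-derived ones. Lists carry no score, depth or replicate value, so no value has an error, no difference was tested, and a region without a peak (called closed here) is one the list does not hold. Among markers, the start of NANOG lay in a peak in hPSC, DE, aNE and aNE_T, the start of OTX2 in all lists but pNE_T and pNE_H, and the start of HOXA2 in pNE_H alone. The second marker with a known start in each of these classes, DPPA4 (pluripotent), LHX2 (forebrain) and EGR2 (hindbrain), had it in a peak in all 10 lists. The starts of PAX6, SOX1 and SOX2 lay in peaks in all 10 lists, but so did those of the mesendoderm genes TBXT, GATA6 and EOMES. The start of the surface ectoderm gene TP63 lay in no peak of any list.

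The start regions of PAX3 and LMX1A, like those of GDF7, MSX1, MSX2 and PAX7, were open in every list. The bases just before the starts are shown for GDF7, MSX1, MSX2 and PAX7 only. Each sequence is the 250 bases before the annotated start, 5′ to 3′ on the gene's strand, from RefSeq on GRCh38.p14, and capitals mark bases inside a peak in all 10 lists. All 4 lie on the plus strand, at chr2:20666894-20667143 (GDF7), chr4:4859415-4859664 (MSX1), chr5:174724332-174724581 (MSX2) and chr1:18630596-18630845 (PAX7).

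GDF7: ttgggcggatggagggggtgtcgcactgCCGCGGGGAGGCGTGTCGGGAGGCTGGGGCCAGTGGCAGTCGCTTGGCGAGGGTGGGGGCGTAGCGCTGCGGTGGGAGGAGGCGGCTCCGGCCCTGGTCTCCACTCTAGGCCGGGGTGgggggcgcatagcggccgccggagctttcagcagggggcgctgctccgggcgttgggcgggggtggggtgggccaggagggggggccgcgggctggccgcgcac
MSX1: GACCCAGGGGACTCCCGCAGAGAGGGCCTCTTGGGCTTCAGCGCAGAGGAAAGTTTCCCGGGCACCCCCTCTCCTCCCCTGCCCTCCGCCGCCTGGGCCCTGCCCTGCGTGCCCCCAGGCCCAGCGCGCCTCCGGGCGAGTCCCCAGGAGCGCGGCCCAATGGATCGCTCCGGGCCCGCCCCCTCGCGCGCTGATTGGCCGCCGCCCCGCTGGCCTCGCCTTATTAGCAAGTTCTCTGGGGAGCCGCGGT
MSX2: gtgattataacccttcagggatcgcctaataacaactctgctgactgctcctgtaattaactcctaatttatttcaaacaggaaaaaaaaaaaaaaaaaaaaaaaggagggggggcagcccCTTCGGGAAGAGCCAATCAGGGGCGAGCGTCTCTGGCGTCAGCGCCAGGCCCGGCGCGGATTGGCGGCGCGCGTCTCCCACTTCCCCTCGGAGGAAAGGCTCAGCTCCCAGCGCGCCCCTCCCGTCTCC
PAX7: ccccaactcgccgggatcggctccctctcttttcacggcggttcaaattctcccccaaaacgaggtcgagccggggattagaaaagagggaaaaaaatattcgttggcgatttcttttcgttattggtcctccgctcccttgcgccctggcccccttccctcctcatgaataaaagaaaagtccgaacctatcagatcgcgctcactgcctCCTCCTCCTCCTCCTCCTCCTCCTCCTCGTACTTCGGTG

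The MSX pair differed in how far the common open stretch reached. At MSX1 all 250 bases were in peaks of every list, while at MSX2 129 were, next to the start, and 105 of the farther bases were in a peak of at most 1 list. At PAX7 39 bases were shared by all lists and 105 were in at most 1. GDF7 had its 118 shared bases away from the start rather than beside it. The GC content of these stretches was 77.6% at GDF7, 74.0% at MSX1, 55.6% at MSX2 and 54.8% at PAX7, beside a median of 62.0% over 22199 promoters. Of 6 short motifs searched on both strands in the 250 bases, the motif CCAAT was found at 4 of the 7 annotated starts of the 6 genes (LMX1A has 2 starts), beside 32.7% of all promoters. These were the starts of MSX1, MSX2, PAX3 and PAX7. GGGCGG was found at 4 of 7, beside 53.7%. TAATTA was found at MSX2 only, beside 3.15%, at 197 bases before the start where 1 list had a peak. The motif of the core promoter, TATAAA, was at 0 of the 7 starts, beside 9.0% of promoters. The nuclear receptor element AGGTCA was at 0 of 7, beside 10.5%. The TCF and LEF element CTTTGA was also at 0 of 7, beside 9.62%. These matches are letters in a window and were not tested as binding sites.

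The region at the start was open in all 10 lists at all 6 genes, although at 2 genes the start base itself was not inside a peak in every list. Over genes with a start in the promoter table, 71.3% had a start inside a peak in all 10 lists. By the same count 4 of the 6 genes did (MSX1, MSX2, PAX7 and the inner start of LMX1A), near that background. The outer start of LMX1A lay in a peak in every list but DE.

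GDF7 was one of the exceptions. Its start base lay outside every peak in hPSC and DE, and inside a peak in the 8 later lists, where that peak was 745 bp in aNE, 1357 in pNE, 1383 in aNE_T, 1823 in aNE_M, 1394 in aNE_H, 1100 in pNE_T, 1771 in pNE_M and 1704 in pNE_H. In hPSC and DE, peaks of that region flanked the start without covering it. The covered bases (bases inside peaks in the gene body with 50 kb each side) at GDF7 were 7161 in hPSC, 8568 in DE, 8255 in aNE and, on the same day, 8957 in pNE. On day 4 they were 8689, 9775 and 8943 in aNE_T, aNE_M and aNE_H, and 8826, 8220 and 11229 in pNE_T, pNE_M and pNE_H. The hPSC list was lowest and the pNE_H list highest, and the 2 day 4 origins overlapped. Of the 30 regions in this window 21 touched the neighbouring genes HS1BP3 or LDAH, so the window describes more than GDF7. A region at chr2:20629301-20630106, 37.4 kb before the start and touching HS1BP3, was closed in hPSC, DE, aNE and aNE_T and open in the other 6 lists.

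**Figure D1:**
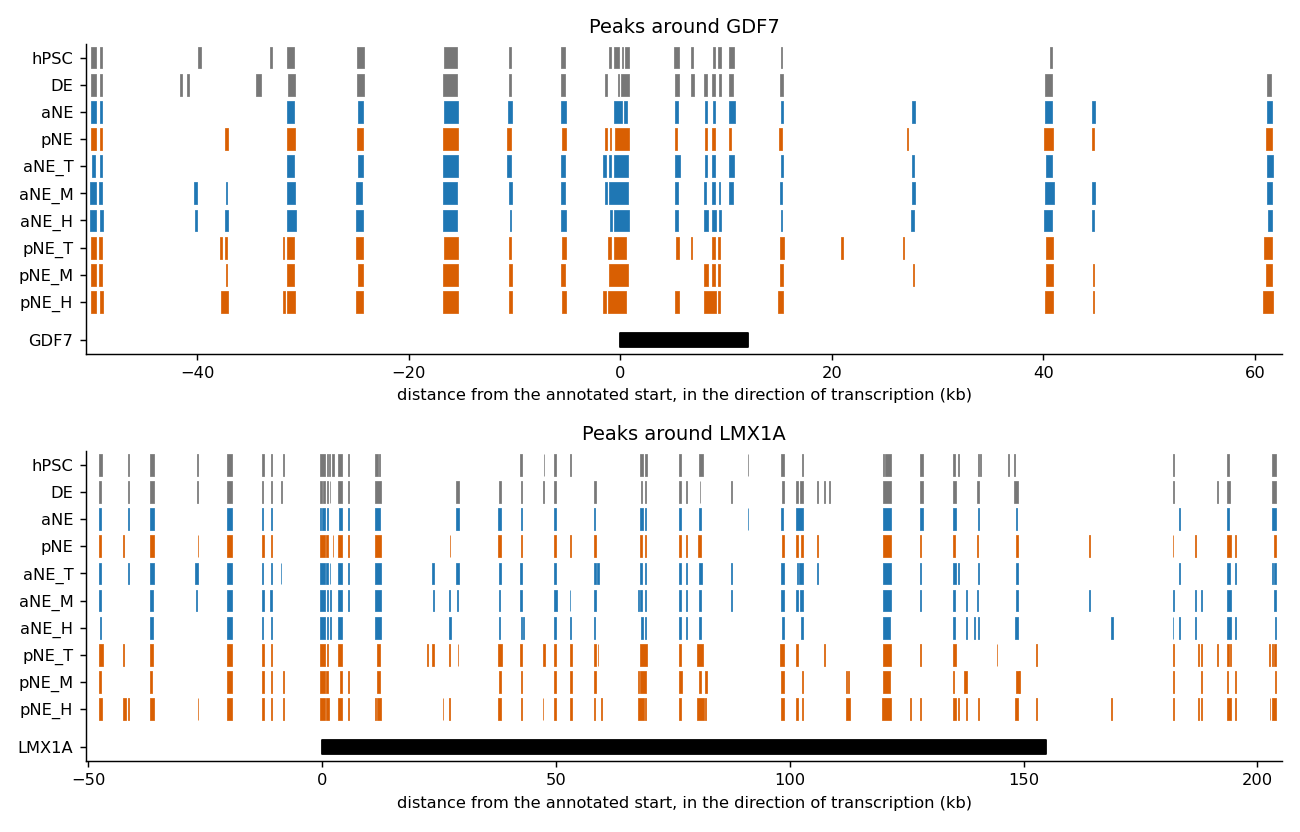
Peaks around GDF7 (top) and LMX1A (bottom) in the 10 lists, one row per list, by distance from the annotated start in kb in the direction of transcription; the black bar is the gene, and grey, blue and orange mark hPSC and DE, the aNE lists and the pNE lists. The gap at the start of GDF7 in hPSC and DE is covered in the later lists.

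LMX1A had 70 regions, 20 of them open in every list, a class that held 16.5% of all regions. Its covered bases were 16404 in hPSC, 19101 in DE, 16910 in aNE and, on the same day, 16826 in pNE. On day 4 they were 20032, 18211 and 15787 in aNE_T, aNE_M and aNE_H, and 19800, 15881 and 23357 in pNE_T, pNE_M and pNE_H. In covered bases the aNE_H list was lowest and the pNE_H list, the longest of all, was highest. As shares of each list's peak bases the order was different. The pNE_H list was then lowest (180.81 bases per Mb of peaks) and the aNE_T list highest (229.81). The widest region, at chr1:165235069-165236993 inside the gene and 121 kb past the start, was open in all 10 lists with 1493 to 1902 bp in peaks. At chr1:165278643-165278966 and chr1:165354880-165355183, both inside the gene, all 3 aNE-derived lists and no pNE-derived list had a peak. That class held 0.633% of all regions. The region at chr1:165243914-165244668, chosen after its values were seen, had peaks in pNE_M (421 bp) and pNE_H (755 bp) and in no other list.

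MSX1 had fewer peaks on day 2 than on days 0 and 1, and more in the pNE-derived midbrain and hindbrain lists. The list of hPSC had 20 peaks there, that of DE 20, that of aNE 13 and that of pNE 12. The whole lists held 213572, 247642, 167792 and 206811 peaks in the same order, so the day 2 lists were also shorter. At MSX1 the day 4 numbers were 13, 13 and 12 in aNE_T, aNE_M and aNE_H, and 13, 22 and 21 in pNE_T, pNE_M and pNE_H. The pNE_M and pNE_H lists stood apart from the other 4 day 4 lists, which were within 1 peak of each other. The whole pNE_M list held 217714 peaks and pNE_H 313095, against 197832 to 218659 in those 4. Some MSX1 peaks of pNE_M were shorter than 122 bp, the least width in any aNE-derived list. The part of list length and least width in these numbers was not tested. Covered bases were 6134, 6791, 5160 and 4889 in hPSC, DE, aNE and pNE, then 5338, 5585 and 5218 in the aNE-derived lists and 5555, 6778 and 8710 in the pNE-derived lists. The pNE_T value lay between those of aNE_T and aNE_M, so the origins overlapped. The ratio of covered bases to DE was 0.76 in aNE and 0.72 in pNE, beside medians of 0.846 and 0.893 over all genes.

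Of the 38 regions around MSX1 3 lay in the gene itself. By time, 9 of the 38 were open in hPSC or DE and in no later list, a class that held 12.9% of all regions. The regions open in pNE_M and pNE_H and in no other list numbered 3 at MSX1, 3 at PAX3 and 2 at LMX1A, which is 8 of 296 (2.70%), beside 2.08% of all regions. At MSX1 they were chr4:4827735-4828404 (31.6 kb before the start; 114 and 658 bp in pNE_M and pNE_H), chr4:4840488-4840727 (19.1 kb before; 195 and 239 bp) and chr4:4890184-4890856 (30.9 kb past; 673 and 524 bp). These 3 were chosen after their values were seen. Within the gene itself the ratio of mean pNE-derived to mean aNE-derived covered bases was 0.717, against 1.30 with the flanks. It rests on few bases, with 857, 660 and 448 in aNE_T, aNE_M and aNE_H. The pNE_T, pNE_M and pNE_H lists had 715, 187 and 506 there, so the origins overlapped. The widest region, chr4:4838013-4839372, lay 21.0 kb before the start and was open in all 10 lists.

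**Figure D2:**
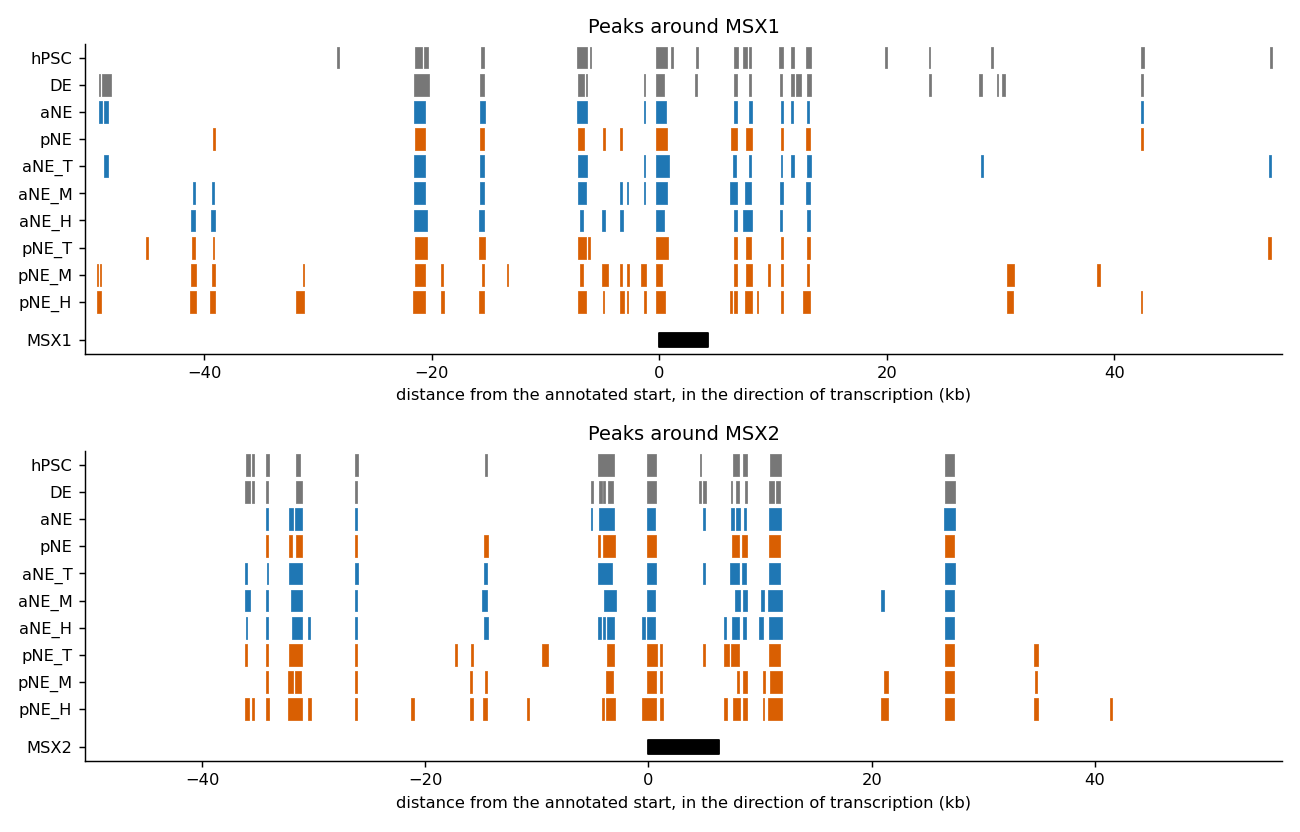
Peaks around MSX1 (top) and MSX2 (bottom) in the 10 lists, by distance from the annotated start in kb; the black bar is the gene, and grey, blue and orange mark hPSC and DE, the aNE lists and the pNE lists. At MSX1 peaks near -31.6 and 30.9 kb are in the pNE_M and pNE_H lists, and at MSX2 a peak near 34.7 kb is in the 3 pNE-derived lists.

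MSX2 had 3 narrow regions with peaks in the pNE-derived lists alone. Its covered bases were 6924 in hPSC, 5913 in DE, 6585 in aNE and, on the same day, 6365 in pNE. On day 4 they were 7243, 7560 and 7314 in the aNE-derived lists and 7819, 6625 and 10496 in the pNE-derived lists. Since pNE_M was below all 3 aNE-derived lists, the origins overlapped. At 3 of its 27 regions all 3 pNE-derived lists and no other list had a peak: chr5:174759132-174759472 (34.7 kb past the start; 330, 129 and 309 bp in pNE_T, pNE_M and pNE_H), chr5:174725619-174725904 (inside the gene; 209, 175 and 274 bp) and chr5:174708597-174708867 (15.8 kb before; 227, 190 and 194 bp). Over the 6 genes 4 of 296 regions (1.35%) were open in all pNE-derived and no aNE-derived list, beside 2.33% of all regions. In the opposite direction there were 5 (1.69%), beside 0.633%. The shortest peaks allowed by the 2 sets of lists differed, and the part of that in these narrow regions was not tested.

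PAX3 had more covered bases on day 2 than on day 1, while most genes had fewer. It did not have more peaks, with 31 in DE, 24 in aNE and 31 in pNE. The mean covered bases per peak were 401 in DE, 594 in aNE and 540 in pNE. Peaks of the whole lists were also wider on day 2, with median widths of 265 bp in DE, 308 in aNE and 287 in pNE. The window held 12034 covered bases in hPSC, 12442 in DE, 14267 in aNE, then 16745 for pNE. On day 4 it had 15852, 17495 and 15932 in aNE_T, aNE_M and aNE_H, and 15042, 16113 and 22298 in pNE_T, pNE_M and pNE_H. Every list from day 2 on was above hPSC and DE. The ratio to DE was 1.15 in aNE, where the median of all genes was 0.846, and 1.35 in pNE, where it was 0.893. A ratio above 1 was found for 2 of the 6 genes in aNE over DE (PAX3 and MSX2), beside 10.5% of all genes, and for 3 of 6 in pNE over DE (PAX3, MSX2 and GDF7), beside 23.5%. These counts are small, and the 6 genes were chosen by name with earlier results of these data known.

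Among the 56 regions around PAX3, 26 were closed in hPSC and DE and open later. Over the 6 genes that class held 104 of 296 regions (35.1%), beside 44.3% of all regions. At chr2:222196140-222197044, 102 kb past the start and beyond the gene's end, peaks were in pNE (651 bp), aNE_M (795), aNE_H (344), pNE_M (529) and pNE_H (358), and in neither telencephalon medium list. A second region 138 kb past the start, chr2:222160973-222161291, had the same 5 lists, as did chr4:4856163-4856522 before MSX1. This pattern was found at 3 of 296 regions (1.01%), beside 0.474% of all regions, and was chosen after the regions were seen. The widest region, chr2:222318125-222321031, was open in all lists with 2077 to 2907 bp, and it touches the neighbours RNF228 and CT75. In the pNE_T list the start base of PAX3 lay outside the peaks, which covered 669 bp of the start region, and in the other 9 lists it lay inside one.

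PAX7 differed from PAX3 in its early lists. It had 17618 covered bases in hPSC, 18612 in DE, 15192 in aNE and, on the same day, 16657 in pNE. On day 4 it had 20110, 18067 and 17106 in aNE_T, aNE_M and aNE_H, and 14567, 15028 and 19738 in pNE_T, pNE_M and pNE_H. The pNE_T and pNE_M lists were below all 3 aNE-derived lists, and pNE_H was not. Of its 75 regions 14 were open in hPSC or DE and in no later list, where PAX3 had 1 of 56. Over the 6 genes that class held 33 of 296 regions (11.1%), beside 12.9% of all regions.

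At 4 regions, all of them around PAX7, hPSC, DE and aNE had no peak while pNE and all 6 day 4 lists did. That is 1.35% of the 296 regions, beside 0.621% of all regions, and the pattern was chosen after the regions were seen. The widest, chr1:18619004-18619635 at 11.5 kb before the start, had 603 bp in pNE, 583, 571 and 598 in aNE_T, aNE_M and aNE_H, and 417, 551 and 525 in pNE_T, pNE_M and pNE_H. The others were chr1:18645169-18645674, chr1:18734776-18735340 and chr1:18736878-18737273, all inside the gene. At 3 further regions (chr1:18795297-18796097, chr1:18707820-18708387 and chr1:18723785-18724325) all 3 aNE-derived lists and no pNE-derived list had a peak. Each of these 3 was also open in DE and aNE. Regions open in all aNE-derived and no pNE-derived list made up 0.633% of all regions.

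**Figure D3:**
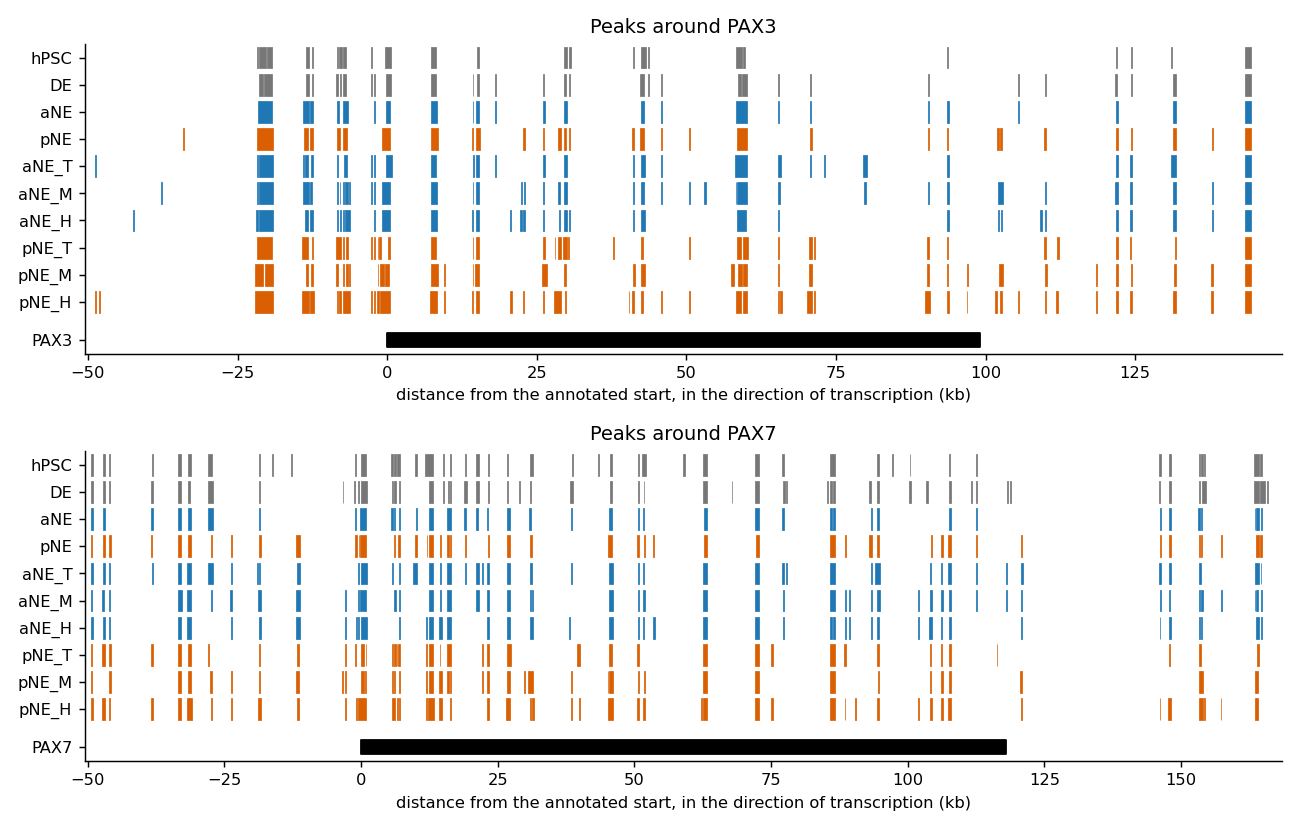
Peaks around PAX3 (top) and PAX7 (bottom) in the 10 lists, by distance from the annotated start in kb; the black bar is the gene, and grey, blue and orange mark hPSC and DE, the aNE lists and the pNE lists. At PAX7 the peak 11.5 kb before the start is in pNE and the 6 day 4 lists, and at PAX3 the peak 102 kb past the start is in pNE and the midbrain and hindbrain medium lists.

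Between the 2 day 2 populations the genes did not differ by the fold used here. The ratio of covered bases in pNE to those in aNE was 1.17 at PAX3, 1.10 at PAX7, 0.947 at MSX1, 0.967 at MSX2, 0.995 at LMX1A and 1.09 at GDF7. None of the 6 reached 1.5 upward (beside 4.64% of all genes) or 1 over 1.5 downward (beside 0.768%). Their median was 1.04, and that of all genes was 1.05. Summed over the 6 genes the ratio was 1.06, and as a share of all peak bases of each list it was 0.929. Around the 6 genes 38 regions (12.8%) were open in pNE and not aNE, beside 12.7% of all regions, and 18 (6.08%) in aNE and not pNE, beside 5.54%.

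From day 0 to day 1 the ratio of DE to hPSC was 1.03 at PAX3, 1.06 at PAX7, 1.11 at MSX1, 0.854 at MSX2, 1.16 at LMX1A and 1.20 at GDF7. It was above 1 at 5 of the 6, beside 61.9% of all genes, whose median was 1.04. The whole DE list covers 1.11 times the bases of the hPSC list. As shares of each list's peak bases the ratio was 1.05 at LMX1A, 1.08 at GDF7 and 1.0 at MSX1, and below 1 at PAX3 (0.934), PAX7 (0.954) and MSX2 (0.771).

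On day 4 no gene of the 6 was separated by origin in covered bases. The count of genes higher in all 3 pNE-derived lists than in all 3 aNE-derived lists was 0 of 6 (beside 8.44% of all genes), and the count lower was 0 of 6 (beside 1.30%). The ratio of means was 1.08 at PAX3, 0.892 at PAX7, 1.30 at MSX1, 1.13 at MSX2, 1.09 at LMX1A and 1.03 at GDF7. The pNE_H list decided the direction at 4 genes: without it the ratio was 0.948 at PAX3, 0.98 at MSX2, 0.991 at LMX1A and 0.933 at GDF7, while it was 1.15 at MSX1 and 0.803 at PAX7. Counted as shares of each list's peak bases, PAX7 and GDF7 were lower in every pNE-derived list (beside 27.4% of all genes) and MSX1 was higher (beside 5.75%), though its lowest pNE-derived share of 62.11 bases per Mb of peaks was next to the highest aNE-derived share of 62.1.

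In pNE-derived cells the hindbrain list had more covered bases than the telencephalon list at all 6 genes, but as shares of each list's peak bases it had less at 4 of them. The ratio of pNE_H to pNE_T was 1.48 at PAX3, 1.35 at PAX7, 1.57 at MSX1, 1.34 at MSX2, 1.18 at LMX1A and 1.27 at GDF7. A ratio above 1 was found for 95.3% of all genes, whose median was 1.30, and MSX1 alone reached 1.5, beside 22.4% of all genes. The ratio of shares was 1.03 at PAX3 and 1.09 at MSX1, and 0.938 at PAX7, 0.929 at MSX2, 0.817 at LMX1A and 0.881 at GDF7. In aNE-derived cells the ratio of aNE_H to aNE_T was 1.01 at PAX3, 0.851 at PAX7, 0.978 at MSX1, 1.01 at MSX2, 0.788 at LMX1A and 1.03 at GDF7, and the median of all genes was 0.927. At PAX7, MSX1 and LMX1A the hindbrain list was thus lower in aNE-derived and higher in pNE-derived cells, which is 3 of 6 genes beside 64.6% of all genes. As shares of each list's peak bases 0 of the 6 had that pattern, beside 11.7%. In pNE-derived cells the ratio of the midbrain to the telencephalon list was 1.07 at PAX3, 1.03 at PAX7, 1.22 at MSX1, 0.847 at MSX2, 0.802 at LMX1A and 0.931 at GDF7, with a median of 0.929 over all genes. In aNE-derived cells it lay between 0.898 (PAX7) and 1.12 (GDF7), with a median of 1.0 over all genes.

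**Figure D4:**
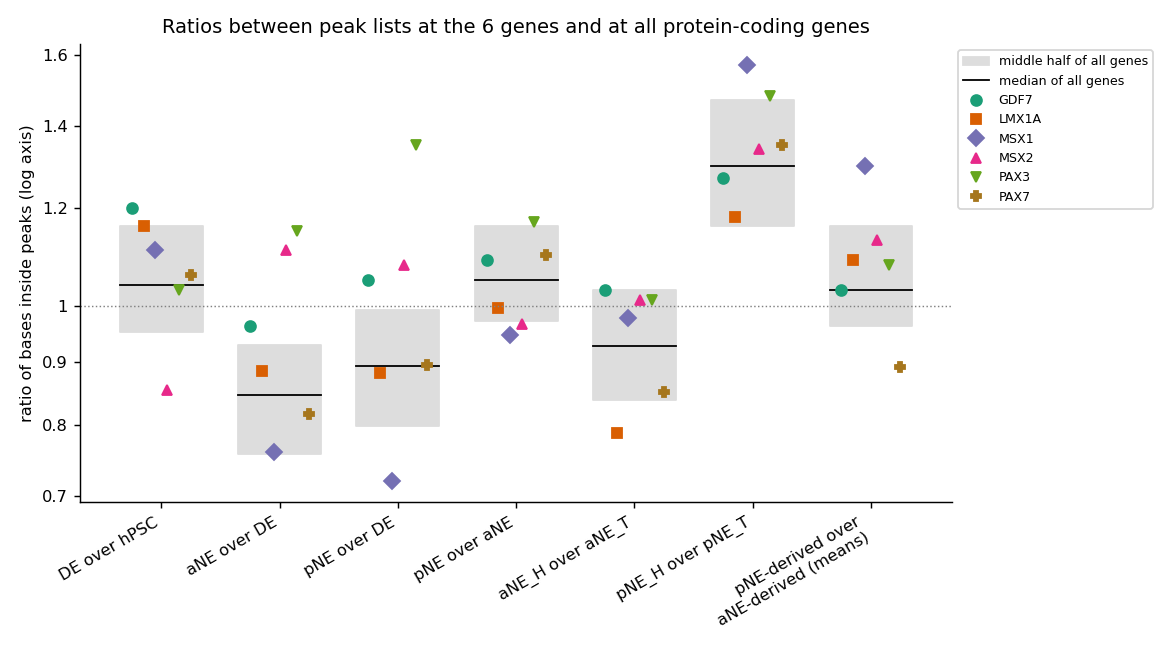
Ratio of covered bases between lists at each of the 6 genes (symbols), on a log axis, for 7 comparisons; the grey boxes span the middle of all protein-coding genes from the lower to the upper quartile and the black lines are their medians. PAX3 lies above the box in pNE over DE (1.35), MSX1 below it (0.72), and all 6 lie above 1 in pNE_H over pNE_T.

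**Figure D5:**
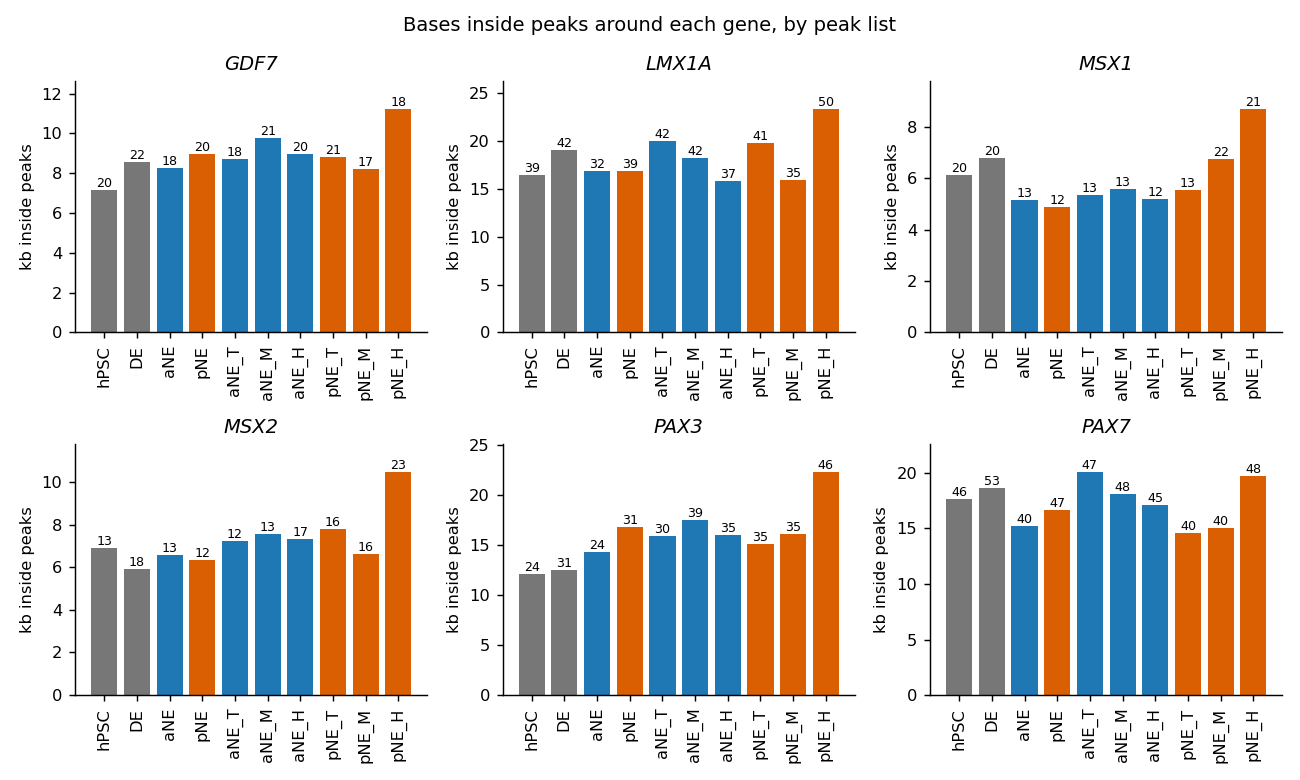
Bases inside peaks in kb (bars, from 0) in the window of each gene in the 10 lists, with the number of peaks above each bar; grey, blue and orange mark hPSC and DE, the aNE lists and the pNE lists. The pNE_H list has the tallest bar at 5 genes, and at PAX7 aNE_T does.

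Regions open in every list made up 80 of the 296 (27.0%), beside 16.5% of all regions. Regions open in 1 list made up 65 of the 296, beside 33.5%, and those in pNE_H alone 12 (4.05%), beside 10.6%. As shares of each list's peak bases over the 10 lists, PAX3 and GDF7 had the highest correlation (Pearson r = 0.769), PAX3 and PAX7 had r = -0.00537, and MSX1 was negative with each of the other 5. The 10 points share the cell line, the peak caller and overlapping origins, and the values are a description. The genes whose share most resembled that of the 6 summed, among 14339 searched, were CARD10 (r = 0.973), LAG3 (0.957) and KMT2D (0.953).

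Other genes of the pathway had median ratios near that of all genes on day 2. On day 2 the median ratio of pNE to aNE was 1.03 over 10 roof plate and BMP ligand genes, 1.08 over 8 BMP response genes and 1.02 over 10 dorsal progenitor genes. It was 1.07 over 12 ventral neural tube genes and 1.03 over 16 genes of neural crest and surface ectoderm. Of these genes BMP5 (2.61) and DBX2 (1.94) alone reached 1.5. That is 1 of 10 roof plate and BMP ligand genes and 1 of 10 dorsal progenitor genes, beside 4.64% of all genes. On day 4, 1 gene of each of the 3 dorsal lists was higher in every pNE-derived list: BMP6, a BMP ligand, ID4, an inhibitor of basic helix-loop-helix factors that BMP induces, and OLIG3, a factor of the most dorsal progenitors. That is 1 of 10, 1 of 8 and 1 of 10, beside 8.44% of all genes. The ratio of means was 1.36 at BMP6, 1.41 at ID4 and 1.31 at OLIG3. Of the ventral genes 0 of 12 were higher, and of the crest and surface genes 1 of 16 was, the zinc finger factor GATA3. By number of peaks, 0 of 10 roof plate and BMP ligand genes, 1 of 8 BMP response genes and 2 of 10 dorsal progenitor genes were higher. So were 2 of 12 ventral genes and 2 of 16 crest and surface genes, beside 9.19% of all genes. In covered bases none of the 5 lists had a gene lower in every pNE-derived list, beside 1.30% of all genes. As shares of each list's peak bases the counts were different. Higher were 1 of 10 roof plate and BMP ligand genes, 1 of 8 BMP response genes, 0 of 10 dorsal progenitor genes, 0 of 12 ventral genes and 2 of 16 crest and surface genes, beside 5.75% of all genes. Lower were 5 of 10, 3 of 8, 1 of 10, 0 of 12 and 5 of 16 in the same order, beside 27.4%.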

How the data were processed

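OmniATAC-seq libraries of H1 cells were summarised as 10 deposited peak lists, 1 for each group of 3 libraries. The lists hold a sequence name, a start and an end, with no score, and each was given to the group whose name it carries. How the authors combined the 3 libraries is not given in the sources used here. The submitters' processing notes name hg38, FastQC, Bowtie2, MACS2, bedtools, featureCounts, edgeR and deepTools, without roles or versions. Any difference in peak calling between lists would move every value.

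From these lists the peaks, covered bases and merged regions (overlap of at least 1 bp) in each gene body with 50 kb each side were computed for 20037 protein-coding genes of the GRCh38.p14 RefSeq table with Python 3.11.15, numpy 2.4.6 and pandas 2.3.3, and plotted with matplotlib 3.10.9. Share values are covered bases per Mb of peaks in a list. Depth is unknown, and no statistical test was possible. The window count was tested on simulated lists. The regions named were the start region, the widest, and up to 3 separated by origin or open in exactly 1 of aNE and pNE, widest first; others are marked as chosen after their values were seen. Region classes for pNE with all day 4 lists, and for pNE with the midbrain and hindbrain lists, were added after the regions were seen. The genes and gene lists were chosen with earlier results of these data known. Alternatives were other windows, measures, list sizes and scalings, and leaving out pNE_H.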

Additional observations from a re-analysis of the deposited data

Results flagged for a closer look

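At 3 genes the hindbrain medium went with fewer covered bases than the telencephalon medium in aNE-derived cells and with more in pNE-derived cells, which is what drew attention to them. The difference was -3004 bp in aNE-derived and 5171 bp in pNE-derived cells at PAX7, -120 and 3155 bp at MSX1, and -4245 and 3557 bp at LMX1A. These opposite directions were not tested, since each group has 1 list. The same pattern was found for 64.6% of all genes, and as shares of each list's peak bases it was found for 0 of the 6 genes, beside 11.7% of all genes.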

How the results depend on the processing

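Summed over the 6 genes, scaling by all peak bases of the list took the day 2 ratio of pNE to aNE from 1.06 to 0.929, that of DE to hPSC from 1.08 to 0.973, that of the day 4 origins from 1.05 to 0.92 (means of shares) and that of pNE_H to pNE_T from 1.34 to 0.927. Without the pNE_H list the day 4 origin ratio was 0.938. The ratio of aNE_H to aNE_T, 0.91, was 1.02 by number of peaks and 1.02 by 500 bp windows at peak midpoints. The cause was not tested. The count of genes higher in every pNE-derived list, 0, was 1 with the gene body alone (MSX2), 1 with the widest peaks in lists of one size (MSX1) and 1 by shares (MSX1). The count lower, 0, was 2 by shares (PAX7 and GDF7) and 1 without pNE_H (PAX7). By shares 5.75% of all genes were higher and 27.4% lower. For the gene body alone, the lists of one size and without pNE_H, the share of all genes was not counted. Leaving out pNE_H also makes the rule easier to meet. No gene passed the fold of 1.5 on day 2 under any alternative run. For single genes, 12 of 48 day 2 ratios and 14 of 54 day 4 ratios fell on the other side of 1 under an alternative; all but MSX1 with the gene body alone (0.717) stayed within 1.5 times of the value reported. A stricter opening rule, peaks covering at least 50% of a region, gave 29 regions open in all lists in place of 80, and 3 in place of 5 open in all aNE-derived and no pNE-derived list. It gave 2 in place of 4 closed in hPSC, DE and aNE and open in pNE and all day 4 lists. For pNE with the midbrain and hindbrain lists alone it gave 2 in place of 3, and for pNE_M and pNE_H alone 9 in place of 8. The shares of all regions under the stricter rule were not counted. Whether the differences from all regions given above hold under it is therefore not known.

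No paired analysis was possible because the lists carry no replicate. For the same reason no replicate was left out. Unknown depth limits every closed call.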
